A study of Mus musculus with 6 samples.

Results

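The genes described here are 40 symbols of the p53 pathway and of apoptosis, chosen by name: p53 itself with its inhibitors, genes that p53 is known to switch on, and the Bcl2 family, caspases and caspase regulators that carry out cell death. All 40 had a row among the 21937 gene symbols that the authors compared, and none was absent. They serve as a check of damage or of toxicity from the shRNA. The study placed a plasmid for an shRNA against Nat14 (shNat14) or for the control shRNA (NTC) in the progenitors of the mouse cortex by in utero electroporation at embryonic day 14.5, in brains for which the labels name no strain or genotype. Cortex was dissected at embryonic day 18.5, 4 days later, and living cells carrying GFP were sorted into lysis buffer for RNA sequencing, giving 3 libraries of shNat14 and 3 of NTC. No label ties a library to an embryo or litter, so the p-values cover a spread between libraries that may be technical. Both groups went through surgery, electroporation, dissociation and sorting, so a response that these steps raise in both would not appear in a fold change between them.

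p53 is a transcription factor that Mdm2 and Mdm4 hold in check, and that damaged DNA, ribosome stress or mitotic delay release. Its targets slow the cell cycle, repair DNA or start apoptosis, and the outcome depends on the balance of Bcl2 family members that guard or open the outer mitochondrial membrane. In the embryonic cortex, p53-driven loss of progenitors and young neurons is a known consequence of many insults to genome or centrosome, and several of these targets respond at the level of mRNA, whereas p53 itself is held mainly at the level of protein.

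The authors' deposited table gives for each gene a log2 fold change, the mean level over all libraries as log2 CPM (read counts scaled to a common library total, not to gene length), an unadjusted p and an adjusted p (false discovery rate), with no value per library. Fold changes are given as shNat14 over NTC, so a negative value is lower in shNat14. The columns do not state this direction, and it was read from the shRNA's target Nat14, whose log2 value is -3.31 per the authors' deposited table. In all, 34 of 21937 genes passed adjusted p under 0.05 there. Neuronal markers were well expressed per the authors' deposited table, with 8 of 8 pan-neuronal markers and 8 of 9 markers of cortical projection neurons no lower than the median level, a log2 CPM of 1.71 over the 21937 genes. The exception was the vesicular transporter Slc17a7 at a log2 CPM of -1.55. Several marker sets of other cells leaned to one side per the authors' deposited table: 10 of 10 astrocyte markers had a negative fold change (5 at unadjusted p under 0.05, Agt called), as did 10 of 12 microglia markers (5 at unadjusted p under 0.05). Of 9 endothelial and mural markers, 7 were positive per the authors' deposited table, 2 of them at unadjusted p under 0.05. So were 7 of 8 choroid plexus markers per the authors' deposited table (0 at unadjusted p under 0.05), whereas 6 of 7 interneuron markers were negative (4 at unadjusted p under 0.05). Markers of radial glia and intermediate progenitors were mixed, with 4 positive, 5 negative and 0 at unadjusted p under 0.05. At that threshold, 3.51% of the 17400 genes above the lowest level were higher and 2.84% lower. In sorted bulk cells, fewer cells of a type and less RNA per cell cannot be told apart, and the part of these cells in the values of the p53 and apoptosis genes was not tested.

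None of the 40 genes passed adjusted p under 0.05 per the authors' deposited table, a threshold that 0.155% of all genes passed. The processing notes name DESeq, while the columns are named as edgeR names them, so which tool gave these p-values is not certain. No other could be run without values per library. At unadjusted p under 0.05 there were 2 members, 1 higher in shNat14 (Plk2) and 1 lower (Trp53), against 3.51% higher and 2.84% lower (6.35% in all) of the 17400 genes above the lowest level per the authors' deposited table. The members' count of 2 in 40 is near that background. The adjusted p of the other 38 members was 1 per the authors' deposited table. All 40 members lay above the lowest level, and 33 of them at or above the median level. The fold changes of the members ran from -1.43 to 1.32 with a median of -0.065, 18 positive and 22 negative (14 and 26 when re-centred on the median of genes no lower than the median level, 0.032). The median over the 17400 genes above the lowest level was 0.0033, with 52.4% positive. The size of the fold change regardless of sign had a median of 0.25 over the members, and also over the 33 at or above the median level. That median was 0.25 over the 10969 genes no lower than the median level and 0.34 over the 17400 above the lowest level.

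**Figure D1:**
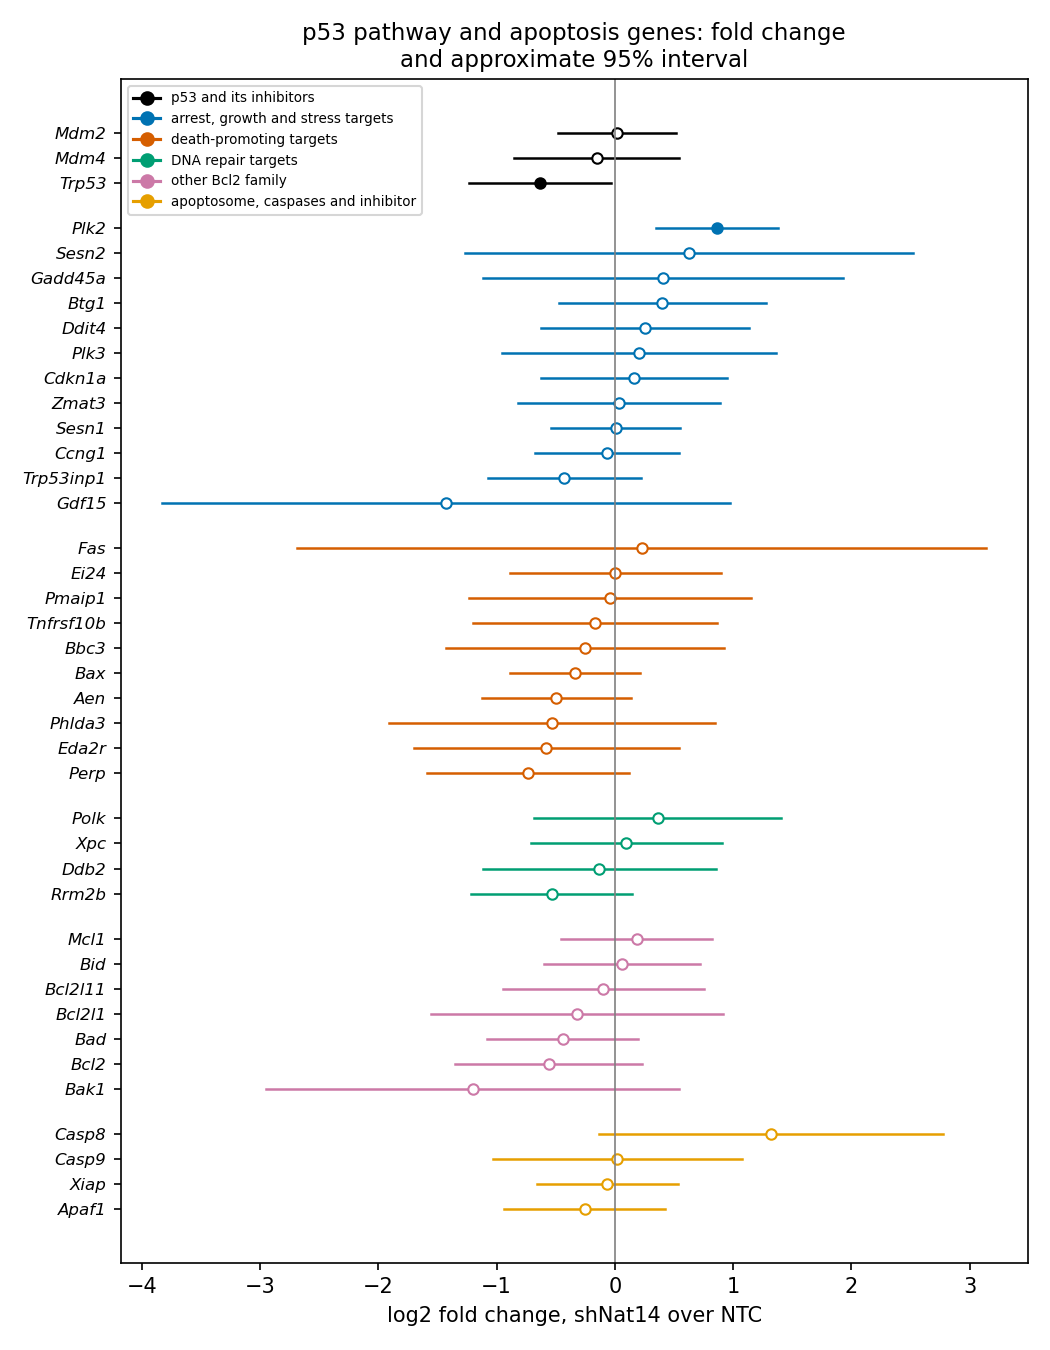
Log2 fold change (shNat14 over NTC) of each of the 40 genes, grouped by role and colour, with lines for the approximate 95% interval. Filled points mark unadjusted p under 0.05, which are Plk2 at 0.86 and Trp53 at -0.63, and the other 38 intervals cross 0.

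The table has no standard errors, so an approximate one was worked out for each gene as the error at which a normal two-sided test would return the deposited unadjusted p. It stays an approximation, as the authors' own test is not known. The approximate 95% intervals below are the fold change with 1.96 such errors on each side. By these intervals, a change of 2-fold in either direction lay outside the interval for 14 of the 40 genes. These were Mdm2, Mdm4, Cdkn1a, Ccng1, Sesn1, Zmat3, Bax, Ei24, Xpc, Mcl1, Bcl2l11, Bid, Apaf1 and Xiap. Several had a bound close to 2-fold, such as 0.94 for Cdkn1a and -0.95 for Bcl2l11. The count of 14 therefore depends on the normal approximation and could be lower under another test. The interval reached a 2-fold rise for 11 genes and a 2-fold fall for 20. A p above the threshold therefore does not show that a gene was alike in both groups, least of all at low level.

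**Figure D2:**
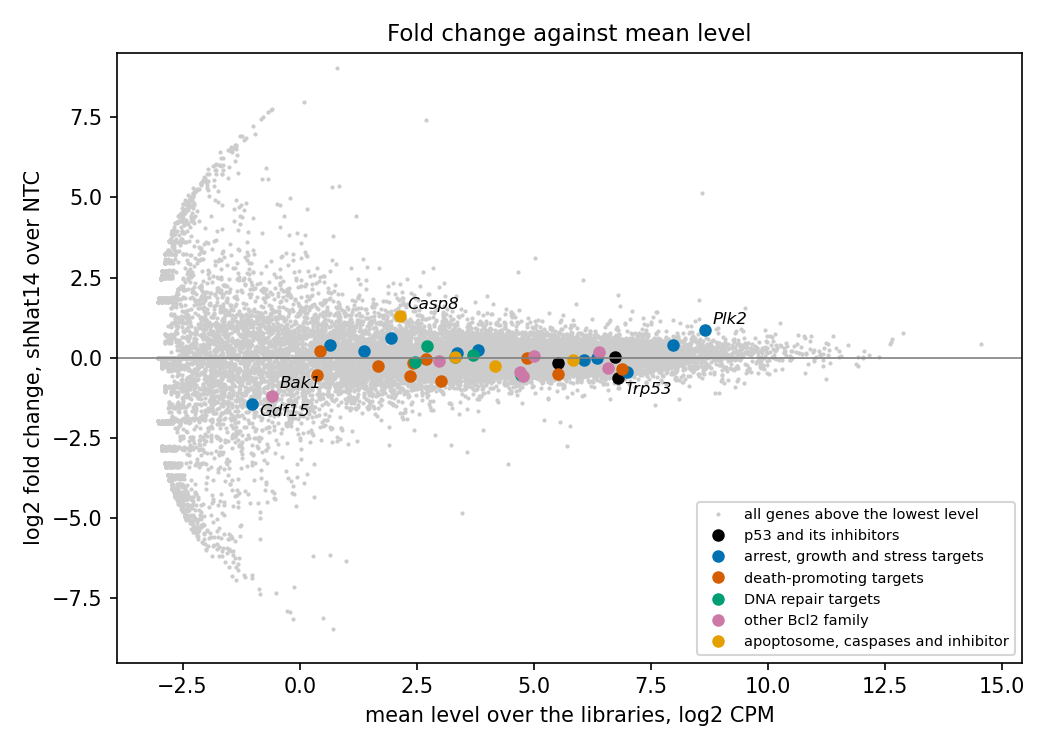
Log2 fold change (shNat14 over NTC) against mean level in log2 CPM, grey points for the 17400 genes above the lowest level and coloured points for the 40 genes by role. The members lie within the grey cloud, with Plk2 at its upper edge at a log2 CPM of 8.66, and Gdf15 and Bak1 at low level.

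Of the core of the pathway, Trp53, the gene of p53, stood at -0.63 on the log2 scale per the authors' deposited table (p = 0.0383, adjusted p = 0.966), which is 0.644 of the NTC level. Its approximate 95% interval was -1.23 to -0.034, and its mean log2 CPM was 6.79. It was the member with the second smallest p, and the adjusted value does not pass. Mdm2, the ubiquitin ligase that destroys p53 and is itself a p53 target, stood at 0.017 per the authors' deposited table (p = 0.946). Its approximate interval of -0.48 to 0.52 was the narrowest of the 40 genes. Mdm4, the relative of Mdm2 that masks the activation domain of p53, stood at -0.16 (p = 0.663) per the authors' deposited table, with an interval of -0.86 to 0.54. So the one member lower at unadjusted p was p53 itself, while the intervals of both inhibitors crossed 0.

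Promoters of 4 genes are shown: Plk2 and Trp53 as the members under unadjusted p of 0.05, and Cdkn1a and Mdm2 as textbook p53 targets. Any link between these promoters and the fold changes was not tested. Each is the stretch of 250 bases before a RefSeq start (GRCm38.p6), 5′ to 3′ on the strand of the gene, with capitals for matches to the p53 consensus decamer, the 10-base unit of which a p53 response element holds a pair. The decamer reads alike on both strands, and no other motif was searched. The windows are chr13:110394794-110395043 (strand +) for Plk2, chr11:69580109-69580358 (strand +) for Trp53, chr17:29090729-29090978 (strand +) for Cdkn1a and chr10:117710759-117711008 (strand -) for Mdm2.
Plk2: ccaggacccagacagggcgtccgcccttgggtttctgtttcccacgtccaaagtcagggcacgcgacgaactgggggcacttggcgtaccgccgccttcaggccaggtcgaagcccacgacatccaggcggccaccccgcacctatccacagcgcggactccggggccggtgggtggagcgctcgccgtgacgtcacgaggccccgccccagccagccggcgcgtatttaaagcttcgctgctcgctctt
Trp53: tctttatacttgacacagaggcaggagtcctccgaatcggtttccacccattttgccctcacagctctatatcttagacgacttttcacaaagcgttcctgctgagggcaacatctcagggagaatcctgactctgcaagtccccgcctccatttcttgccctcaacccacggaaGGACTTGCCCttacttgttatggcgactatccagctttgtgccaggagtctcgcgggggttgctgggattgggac
Cdkn1a: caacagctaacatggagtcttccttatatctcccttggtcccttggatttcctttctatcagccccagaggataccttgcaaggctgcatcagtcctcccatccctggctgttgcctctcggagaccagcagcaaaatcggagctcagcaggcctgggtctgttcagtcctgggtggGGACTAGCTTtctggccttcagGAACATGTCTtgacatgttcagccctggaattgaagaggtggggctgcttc
Mdm2: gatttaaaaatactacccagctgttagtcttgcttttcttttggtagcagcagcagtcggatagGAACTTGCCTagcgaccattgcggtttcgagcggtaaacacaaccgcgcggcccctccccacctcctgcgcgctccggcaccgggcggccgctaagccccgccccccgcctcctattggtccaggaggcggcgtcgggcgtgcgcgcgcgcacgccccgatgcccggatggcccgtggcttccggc
The table of promoters held 46 starts for 32 of the 40 genes. The decamer occurred in 10 of these 46 windows (21.7%), and in 7.13% of the 32851 windows of all genes. A pair of copies at most 13 bases apart was found in 1 member window, that of Cdkn1a shown above, and in 0.0639% of all windows. In that Cdkn1a window the matches begin 73 and 51 bases before its start. The 10 bases directly after the second match, tgacatgttc, differ from the decamer at 1 base, so the strict search left them uncapitalised. The search therefore does not show which stretch of this window is a response element. The window of another Cdkn1a start, chr17:29093519-29093768 (strand +), held 0 matches and is not shown. The Plk2 window above holds no match, that of Trp53 has 1 match beginning 75 bases before the start, and that of Mdm2 has 1 beginning 186 bases before it. The other members with a match were Gadd45a, Bax, Aen, Ei24, Sesn1, Ccng1 and Polk. A match is a run of letters and no sign of binding, and response elements of several targets lie in introns outside these windows.

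Among targets that halt growth or answer stress, 9 of 12 had a positive fold change, with a median of 0.18 (8 of 12 when re-centred, where Sesn1 changed sign). Before re-centring, the share of positive values was 53.6% over genes no lower than the median level and 52.4% over those above the lowest level. Plk2, a polo-like kinase of centriole duplication that is also induced by neuronal activity, had the smallest p of the 40 genes per the authors' deposited table, where its fold change was 0.86 in log2 units (p = 0.00109, adjusted p = 0.231). That is 1.82-fold, with an approximate interval of 0.35 to 1.38 on the log2 scale. By p it ranked 103 among all 21937 genes, and the largest unadjusted p among the 34 called genes was 7.65e-05. Its relative Plk3 stood at 0.20 per the authors' deposited table (p = 0.733, log2 CPM 1.38), with an interval of -0.96 to 1.36 that overlaps that of Plk2; the difference between them was not tested.

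Cdkn1a encodes p21, the cyclin-dependent kinase inhibitor through which p53 stops the cell cycle, and is the most used readout of the pathway. It stood at 0.16 per the authors' deposited table (p = 0.693, log2 CPM 3.35). Its approximate interval, -0.63 to 0.94, stops just short of a 2-fold rise, so a somewhat wider interval would include one. Ccng1, cyclin G1, stood at -0.065 per the authors' deposited table (p = 0.833), and Zmat3, an RNA-binding zinc finger protein, at 0.034 (p = 0.939). Both direct targets thus lay close to 0, with intervals of -0.67 to 0.54 for Ccng1 and -0.82 to 0.89 for Zmat3.

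The sestrins, which restrain mTORC1, gave 0.0055 for Sesn1 (p = 0.984) and 0.63 for Sesn2 (p = 0.515) per the authors' deposited table. The interval was -0.54 to 0.55 for Sesn1 and -1.26 to 2.52 for Sesn2, which at a log2 CPM of 1.94 is too wide to place it. Ddit4, another inhibitor of mTORC1, stood at 0.25 (p = 0.574), Btg1, an antiproliferative gene, at 0.40 (p = 0.371) and Gadd45a, a damage-induced regulator of stress kinases, at 0.40 (p = 0.602) per the authors' deposited table. Trp53inp1, a nuclear cofactor of p53, was at -0.43 (p = 0.194), and the stress cytokine Gdf15 had the lowest fold change of all members per the authors' deposited table, -1.43 at a log2 CPM of -1.01 (p = 0.244). At that level its interval ran over -3.83 to 0.97.

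Death-promoting targets had negative fold changes in 8 of 10 cases, with a median of -0.30 (9 of 10 when re-centred, where Ei24 changed sign), and none of the 10 was at unadjusted p under 0.05. Before re-centring, 46.4% of genes no lower than the median level had a negative fold change, and 47.6% of those above the lowest level. Of the 10 targets, 7 were no lower than the median level. Perp, a membrane protein of epithelia and of apoptosis, stood at -0.73 and had the smallest p of the 10 per the authors' deposited table (p = 0.0921). Aen, a nuclease that p53 induces, followed at -0.49 (p = 0.122) and Bax, the pore-former of the mitochondrial membrane, at -0.34 (p = 0.226) per the authors' deposited table. The approximate interval of Bax, -0.89 to 0.21, does not reach a 2-fold change in either direction, though its lower bound is close to a 2-fold fall.

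The BH3-only genes Bbc3 (Puma) and Pmaip1 (Noxa), which free Bax from its guards and are among the earliest death targets of p53, stood at -0.25 (p = 0.676) and -0.045 (p = 0.941) per the authors' deposited table. Their intervals were -1.43 to 0.93 for Bbc3 and -1.24 to 1.15 for Pmaip1. The 3 receptors among the death-promoting targets lay below 0 log2 CPM per kb of exon. Fas stood at 0.23 (p = 0.879, log2 CPM 0.43), Tnfrsf10b, the mouse TRAIL receptor, at -0.17 (p = 0.75) and Eda2r, the receptor for ectodysplasin A2, at -0.58 (p = 0.313) per the authors' deposited table. Phlda3, which blocks Akt at the membrane, stood at -0.53 (p = 0.449) and Ei24, a membrane protein of the endoplasmic reticulum, at 0.0031 (p = 0.995) per the authors' deposited table. For Fas the interval ran over -2.69 to 3.14, so these libraries do not place it.

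The 4 DNA repair targets split evenly in sign, with a median of -0.018. Rrm2b, the ribonucleotide reductase subunit of non-dividing cells, had the smallest p of them per the authors' deposited table at -0.53 (p = 0.124). The damage sensors of nucleotide excision repair Ddb2 and Xpc stood at -0.13 (p = 0.792) and 0.10 (p = 0.816) per the authors' deposited table. Polk, a translesion polymerase, stood at 0.36 (p = 0.498) per the authors' deposited table. All 4 intervals crossed 0.

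Of the other 7 Bcl2 family genes, 5 had a negative fold change and none was at unadjusted p under 0.05, with a median of -0.32. The share of negative values was 46.4% over genes no lower than the median level. The guardians of the mitochondrial membrane gave -0.56 for Bcl2 (p = 0.164), -0.32 for Bcl2l1, which encodes Bcl-xL (p = 0.611), and 0.18 for Mcl1 (p = 0.571) per the authors' deposited table. Their intervals were -1.35 to 0.23 for Bcl2, -1.56 to 0.91 for Bcl2l1 and -0.45 to 0.82 for Mcl1. On the side that promotes death, the authors' deposited table gave -1.20 for the pore-former Bak1 (p = 0.177), -0.44 for Bad (p = 0.177), -0.10 for Bcl2l11, the gene of Bim (p = 0.821), and 0.059 for Bid, which links death receptors to mitochondria (p = 0.862). Bak1 lay at a log2 CPM of only -0.58, with an interval of -2.95 to 0.54. Values of both signs thus stood on each side of the family, and each interval crossed 0.

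In the machinery that cuts, Casp8, the initiator caspase of death receptors, had the largest positive fold change of the 40 genes per the authors' deposited table, 1.32 in log2 units (p = 0.0755, log2 CPM 2.14). Its interval was -0.14 to 2.77. Casp9, the initiator of the mitochondrial route, stood at 0.021 (p = 0.968), its scaffold Apaf1 at -0.25 (p = 0.463) and Xiap, the X-linked inhibitor of caspases, at -0.064 (p = 0.833) per the authors' deposited table. The intervals were -1.03 to 1.07 for Casp9, -0.94 to 0.43 for Apaf1 and -0.66 to 0.53 for Xiap.

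The approximate standard error of the members ranged from 0.25 for Mdm2 to 1.49 for Fas, with a median of 0.44 on the log2 scale. Over all genes it fell with level, with a median of 0.77 for the 2207 genes at a log2 CPM of 0 to 2 and of 0.29 for the 2535 genes at 6 to 8. At 6 to 8 a fold of 1.48 would reach an unadjusted p of 0.05. In 4 members the error was above that of over 90% of genes in their class of level. For Bcl2l1 it was 0.63, above 99.8% of the genes at a log2 CPM of 6 to 8, and for Btg1 in the same class it was 0.45, above 98.2%. For Fas it was above 97.7% of the genes at 0 to 2, and for Casp8, at 0.74, above 94.8% of those at 2 to 4. An error above that of genes of like level may come from a wider spread between libraries or from the authors' unknown test, and neither was tested. The table does not show whether 1 library stands apart.

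**Figure D3:**
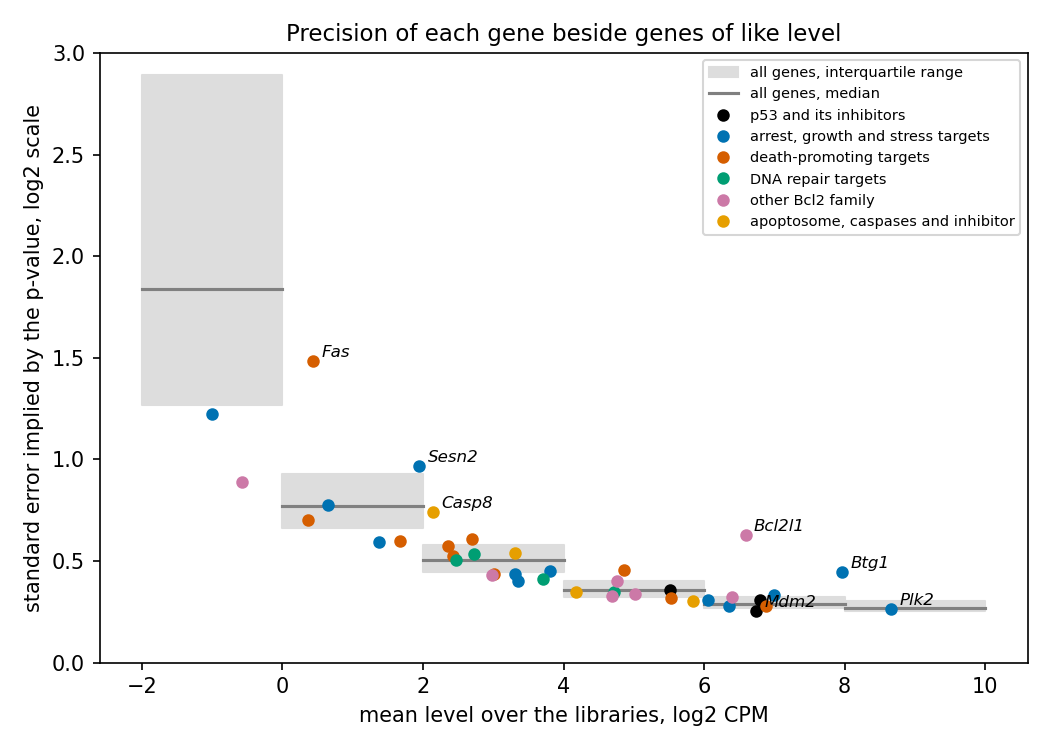
Approximate standard error of the log2 fold change against mean level in log2 CPM, for the 40 genes by role, beside the median (line) and interquartile range (grey) of all genes in 6 classes of level. The lowest and highest classes are drawn only from -2 and to 10. Bcl2l1 at 0.63 and Btg1 at 0.45 stand above the grey range of their class, and Plk2 at 0.26 lies inside its own.

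Levels of different genes were compared per kilobase of exon, from GENCODE M21 gene models. Plk2 had the highest mean level over both groups, 6.49 log2 CPM per kb, followed by Bax at 6.23 and Btg1 at 5.56. A further 7 members lay above 4 on this scale: Trp53 at 4.77, Mcl1 at 4.62, Mdm2 at 4.40, Bcl2l1 at 4.39, Sesn1 at 4.36, Trp53inp1 at 4.30 and Ccng1 at 4.25. Bcl2 was lower than its relatives Mcl1 and Bcl2l1, at 1.57 log2 CPM per kb. Bak1 at -1.85 stood far below the other pore-former, Bax. Cdkn1a lay at 1.52, and 9 members lay below 0 on this scale, with Gdf15 lowest at -1.90. No spread between libraries can be given for these levels, so the order of close neighbours has no error attached.

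**Figure D4:**
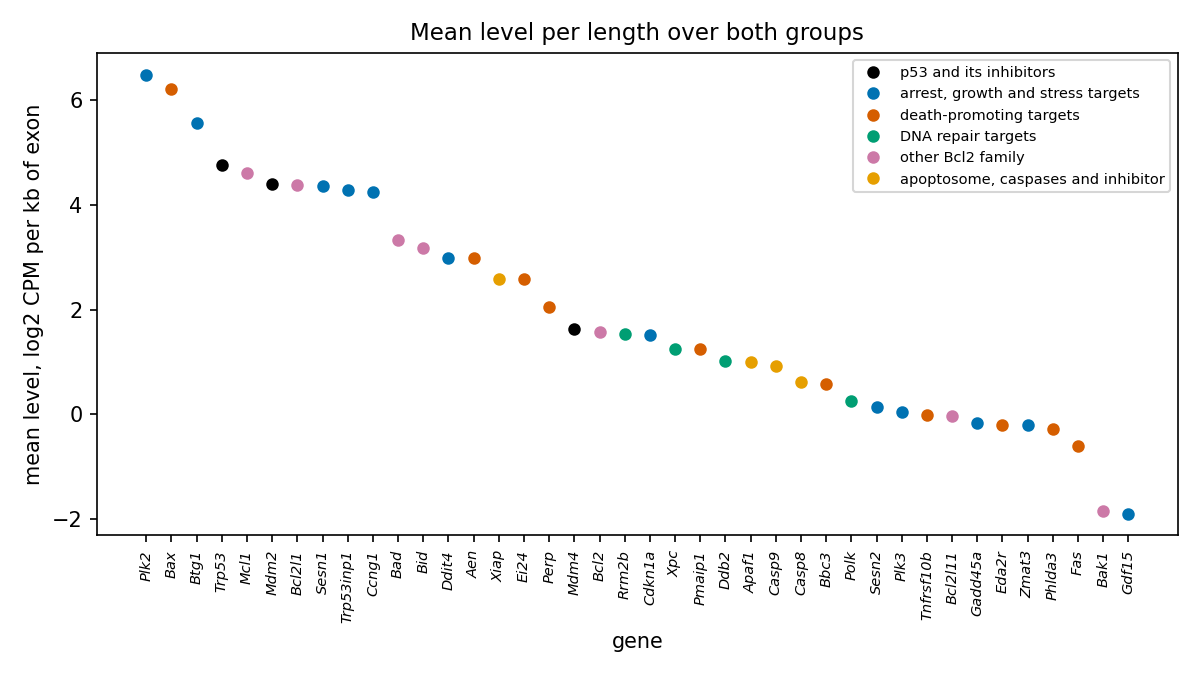
Mean level over both groups in log2 CPM per kb of exon (vertical axis) for the 40 genes in falling order (horizontal axis), coloured by role. Plk2, Bax and Btg1 lead, and Bak1 and Gdf15 lie lowest at -1.85 and -1.90.

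Counting by strand is not stated, so exons shared with a neighbour leave a value uncertain. In GENCODE M21, 12 members share exonic bases with another annotated gene. The largest shares were 25.5% of the exons of Bak1 with Ggnbp1, 23.8% of Ddb2 with Acp2, 20.5% of Bad with Gpr137, 19.1% of Gadd45a with E230016M11Rik and 17.7% of Bid with Bcl2l13, each on the opposite strand. Bax shares 12.2% of its exons with Gm45808 on the same strand, an overlap that counting by strand would not separate. Neither Plk2, Trp53 nor Casp8 shares exonic bases in that annotation, and for Cdkn1a the share was 7.68%.

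Other genes of the pathway were taken from 7 lists, with 133 genes besides the members, all of them in the table. None was called per the authors' deposited table. At unadjusted p under 0.05 there were 6 higher and 3 lower among the 132 above the lowest level, against 3.51% higher and 2.84% lower over all such genes. Their median log2 fold change was 0.0066. Among further p53 targets 2 of 34 were higher and 2 lower at that threshold per the authors' deposited table. Dram1, a lysosomal regulator of autophagy, had the smallest p at -5.66 (p = 0.00729), per the authors' deposited table, but at a log2 CPM of -1.50, where the size of a fold change rests on the unknown prior count. Ppm1d, the phosphatase that switches p53 signalling off, stood at 1.03 (p = 0.0141), the matrix protein gene Thbs1 at 1.15 (p = 0.0255) and the lipase Abhd4 at -0.83 (p = 0.0416) per the authors' deposited table.

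Among 16 genes that modify p53, the deacetylase Sirt1 stood at 0.82 (p = 0.0346) per the authors' deposited table and was the one gene under 0.05. Of 26 genes of DNA damage signalling and break repair, 2 were higher and 0 lower at unadjusted p under 0.05 per the authors' deposited table. Over all genes above the lowest level the shares were 3.51% higher and 2.84% lower (6.35% in all). The 2 were the checkpoint kinase Chek1 at 0.86 (p = 0.0213) and Trp53bp1 at 0.58 (p = 0.0466) per the authors' deposited table. Trp53bp1 is a break-binding protein named for its contact with p53. Chek1 also serves normal replication in cycling cells, and whether this role bears on its value was not tested. The authors' deposited table gave an adjusted p of 0.823 for Chek1 and 0.985 for Trp53bp1.

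No gene passed unadjusted p of 0.05 among 14 death receptors, ligands and adaptors, where the neurotrophin receptor Ngfr had the smallest p at -2.33 (p = 0.0785) per the authors' deposited table. The same held for 9 further Bcl2 family genes, where Bik was first at -2.37 (p = 0.136, log2 CPM -1.42) per the authors' deposited table. Of 21 further caspases, mitochondrial factors and inhibitors, 1 was higher per the authors' deposited table, Casp12, a caspase linked to the endoplasmic reticulum, at 3.27 and a log2 CPM of -0.29 (p = 0.0291). The list of the integrated stress response shares Sesn2, Ddit4 and Gdf15 with the members. In it 11 of 16 genes had a negative fold change, against 46.4% of genes no lower than the median level. In that list Phgdh, the first enzyme of serine synthesis, stood at -0.72 (p = 0.0222) per the authors' deposited table as the one gene under 0.05. At that threshold, 3.51% of all genes above the lowest level were higher and 2.84% lower.

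**Figure D5:**
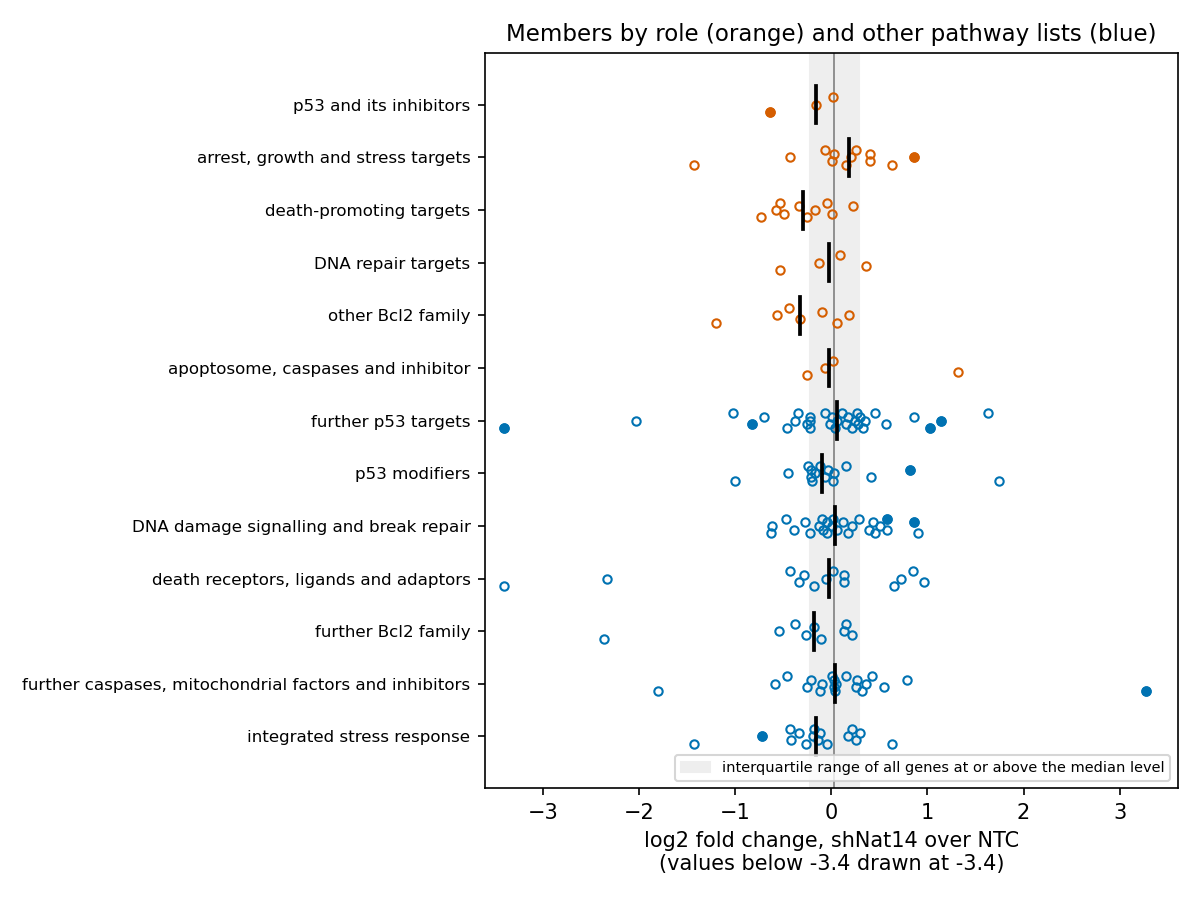
Log2 fold change (shNat14 over NTC) of each gene of the 6 roles of members (orange) and of 7 other pathway lists (blue), filled at unadjusted p under 0.05, with a black bar for the median of each list and grey for the interquartile range of genes no lower than the median level. Medians of the roles run from -0.32 for the other Bcl2 family to 0.18 for arrest, growth and stress targets, and 2 genes below -3.4 (Dram1 and Tnf) are drawn at that value.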

How the data were processed

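RNA of sorted cortical cells was sequenced in 3 shNat14 and 3 NTC libraries, grouped by sample title. The file used is the authors' comparison of the groups, with no values per library, so the depth per library is unknown and no test over libraries was run here. Per the file headers, its values are log2 fold changes, mean log2 CPM, p-values and adjusted p-values, and the log2 values and p-values were used as deposited. Tools in the submitters' processing notes are HTSeq 0.5.4p1, DESeq, TopHat2 2.0.8 and SAMtools 0.1.19. The build named there, hg19, is human, whereas symbols and samples are mouse, so the table's true build is not known. The column names logFC, logCPM, PValue and FDR have the form of edgeR output and not that of DESeq. Which test, filters and prior count the authors used is not given in the sources used here.

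Members and lists were chosen with earlier results of these data known. The rule for names takes all members, Nat14, and of each other pathway list the called genes or, with none called, the gene with the smallest p. Ppm1d, Thbs1, Abhd4 and Trp53bp1, at unadjusted p under 0.05, and the markers Agt and Slc17a7 were named after their values were seen. Of the entries in pathway and marker lists, 208 matched by symbol, 4 by an older RefSeq symbol and 2 not at all. Approximate standard errors are the absolute log2 fold change divided by the normal quantile of the deposited p. Their medians differed little between genes with p below and above 0.5 (0.353 and 0.363 at a log2 CPM of 4 to 6). The calculation was run on simulated normal values with known errors. That run checks the arithmetic only, since it used the same normal test, and cannot show how well the approximation holds for the authors' test. Levels per kb used the union of GENCODE M21 exons, and promoters came from RefSeq (GRCm38.p6). Python 3.11.15, scipy 1.17.1, pandas 2.3.3 and matplotlib 3.10.9 were used. Alternatives were other thresholds, readjustment over fewer genes, re-centred fold changes and level filters.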

Additional observations from a re-analysis of the deposited data

How the results depend on the processing

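No member was called at adjusted p under 0.10, after readjustment over genes above the lowest level or at or above the median level, or after Bonferroni correction. The adjusted p of Plk2 was 0.183 and 0.223 in the readjustments, against 0.231 in the authors' deposited table. Of the 2 members at unadjusted p under 0.05, 1 remained at p under 0.01 (Plk2), and 4 were counted at p under 0.10, where Perp and Casp8 joined. Both of the 2 were at or above the median level. For the other pathway lists the count of 9 became 1 at p under 0.01 (Dram1). The members' median log2 fold change was -0.068 after re-centring, -0.064 at or above the median level and -0.11 as a mean. Re-centring on genes at or above the median level, whose own median is 0.032, turned Casp9 to -0.011, Ei24 to -0.029, Mdm2 to -0.015 and Sesn1 to -0.027, and re-centring on genes above the lowest level turned Ei24 to -0.00023. The other 75 re-centred values kept their sign.

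No paired analysis was possible because the deposited table holds no values per library. For the same reason fits without each replicate and with a second count tool were not run. The depth per library is unknown, so its part in the width of the intervals was not tested. Intervals were widest for Fas, Gdf15 and Sesn2.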
